A study of Mus musculus with 5 samples.

Results

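The genes described here are 10 transcription factors of the basic leucine zipper class: the JUN proteins (Jun, Junb and Jund), the FOS proteins (Fos, Fosb and Fosl2), Atf3, the BATF proteins (Batf and Batf3) and Maff. They were taken as a family list and are 10 of the 19938 genes named on the arrays. All 10 were measured, each by 1 probe set. RNA came from 5 populations sorted from the bone marrow of untreated wild-type C57Bl/6 mice, with 1 expression array per population. Every population was lineage-negative and carried CD115, the product of Csf1r. The monocyte-dendritic cell progenitor (MDP) was CD117+ CD135+, the common dendritic cell progenitor (CDP) was CD117int CD135+, and the common monocyte progenitor (cMoP) was CD117+ CD135-. The classical monocyte was Ly6C+ TremL4-, and its nonclassical counterpart was Ly6C- TremL4+. Age, sex, the number of mice and any pooling are not stated in the labels.

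Basic leucine zipper factors bind DNA as pairs. FOS proteins cannot pair with each other and bind through a JUN partner, while JUN proteins can also pair among themselves, and such pairs are called AP-1. ATF3 is a stress-induced member that often represses its targets. BATF proteins lack an activation domain, pair with JUN proteins and bind with IRF4 or IRF8 at joint sites in immune cells, and BATF3 is known for its need in type 1 conventional dendritic cells. MAFF is a small MAF protein, which also lacks an activation domain. Fos, Fosb, Jun, Junb, Atf3 and Maff belong to the immediate early or early response genes, whose transcripts appear soon after growth factors, stress or cell handling and decay quickly.

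Values are those deposited, read here as log2, so that a difference of 1 is 2-fold, although no source used here names the logarithm's base. A difference between arrays was counted where it was 1 log2 unit or more (the size rule) and the higher array was at or above a floor of 6.27, the median of all named genes' values. With 1 array per population there is no replicate error, no test and no p-value, and each difference is that between a pair of arrays. Having so few arrays is what limits precision here. In bulk RNA, fewer cells that express a gene and less RNA per cell cannot be told apart. The array medians over all 35556 probe sets ran from 6.02 to 6.16. In 46.6% of the probe sets, arrays shared a value to the last digit, as did arrays for 3 of the members (Fosb, Batf3 and Maff), and no order can be read between tied arrays. Among the genes of the gates, Csf1r was at or above 10.03 on all arrays, Flt3 was 10.75 in MDP and 10.74 in CDP against at most 6.74 elsewhere, and Treml4 was 11.78 in nonclassical monocytes against at most 6.18.

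Of the 10 genes, 4 passed the size rule in some comparison, namely Fos, Fosl2, Atf3 and Jun. The share of all genes that did so was not computed. The same 4 members had a range of 1 log2 unit or more over all arrays. Such a range was met by 36.7% of the 11058 genes past the floor on any array. The count of 4 is therefore not read as particular to the members. The promoters of these 4 are shown because the results below turn on them. Each window runs from 250 bases before to 50 bases after the annotated start, from RefSeq on build GRCm38.p6. The Fos window lies at chr12:85473640-85473939 on the plus strand and that of Fosl2 at chr5:32136222-32136521 on the plus strand. The Atf3 window lies at chr1:191183284-191183583 on the minus strand and that of Jun at chr4:95052173-95052472 on the minus strand. Each sequence is written 5′ to 3′ along the gene. Capitals mark matches on either strand to the cyclic AMP response element (CRE) core TGACG, the CRE variant TGACATCA, the TATA box TATAAA and the kappaB site.
Fos: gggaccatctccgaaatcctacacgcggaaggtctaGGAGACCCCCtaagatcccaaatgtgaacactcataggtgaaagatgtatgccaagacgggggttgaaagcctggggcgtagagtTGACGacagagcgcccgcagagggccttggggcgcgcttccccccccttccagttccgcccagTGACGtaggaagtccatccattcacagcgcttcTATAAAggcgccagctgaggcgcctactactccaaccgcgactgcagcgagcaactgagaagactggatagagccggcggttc
Fosl2: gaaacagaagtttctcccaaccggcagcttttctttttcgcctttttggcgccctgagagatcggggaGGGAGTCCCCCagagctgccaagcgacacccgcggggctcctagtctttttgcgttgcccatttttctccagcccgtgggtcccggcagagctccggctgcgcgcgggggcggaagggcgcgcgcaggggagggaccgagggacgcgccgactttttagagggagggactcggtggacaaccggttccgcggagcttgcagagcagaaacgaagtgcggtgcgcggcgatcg
Atf3: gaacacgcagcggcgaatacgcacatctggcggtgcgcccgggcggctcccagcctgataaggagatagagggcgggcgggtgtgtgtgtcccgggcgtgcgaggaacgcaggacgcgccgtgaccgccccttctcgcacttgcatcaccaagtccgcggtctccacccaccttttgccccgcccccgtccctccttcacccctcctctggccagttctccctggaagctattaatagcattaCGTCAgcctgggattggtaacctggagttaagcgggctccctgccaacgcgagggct
Jun: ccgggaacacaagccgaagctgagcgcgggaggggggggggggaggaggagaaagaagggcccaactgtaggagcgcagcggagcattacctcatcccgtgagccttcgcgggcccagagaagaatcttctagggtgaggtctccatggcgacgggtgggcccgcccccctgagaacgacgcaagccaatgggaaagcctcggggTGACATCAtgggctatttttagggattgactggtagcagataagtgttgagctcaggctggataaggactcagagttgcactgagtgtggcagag
The Fos window held the CRE core at -129 and at -66, counted from the start site to the first base of the match, and a TATA box at -33. The Atf3 window held the core on the opposite strand, ending at -3. The Jun window held the variant TGACATCA at -45, a motif that was added after the promoters had been read. The Fosl2 window held no CRE core, and its kappaB matches were a pair that overlap on opposite strands.

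All 10 genes were found in the promoter table, with 12 windows because Maff has 3 annotated starts. The CRE core TGACG was present in 7 of the 12 windows, those of Fos, Fosb, Junb, Atf3, Batf and 2 of the 3 Maff starts, against 20.8% of all 32851 promoter windows of this length. The full palindrome TGACGTCA, which contains the core on both strands, was found in 1 window, that of the second Maff start, against 1.79% of all windows. The variant TGACATCA was found in 2 windows, of Jun and of the third Maff start, against 3.62%. The AP-1 site TGANTCA was in 0 of 12 windows against 7.81%, and the CArG box, the site of serum response factor, in 0 of 12 against 1.63%. This says only that these letters are not in these windows. TATAAA was in 2 windows against 13.6%, the kappaB site in 4 against 8.46%, and the GC box GGGCGG in 9 against 35.7%. GC content ran from 46.7% to 75.7% over the 12 windows, with a median of 52.7% over all promoters. All but the windows of Jund (46.7%), Batf (49.7%) and the first Maff start (50.3%) lay above that median. The motif shares over all windows were not matched for GC content. The core was found both in genes that passed the size rule and in others: Fos and Atf3 held it and passed, while Batf and Maff held it and had ranges of 0.47 and 0.06 log2 units over the 5 arrays.

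**Figure D1:**
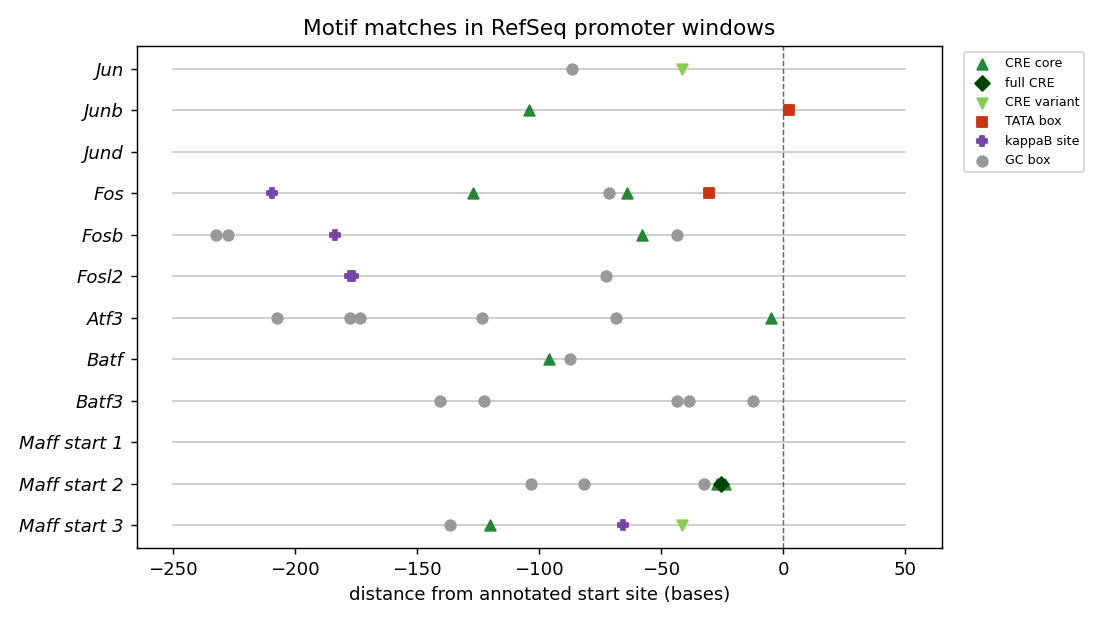
Motif matches on either strand in the 12 RefSeq promoter windows of the 10 genes; the x axis is the distance in bases from the annotated start site (dashed line), and each marker is the centre of 1 match. CRE cores lie in 7 of the 12 windows, and the Jund window and the window of the first Maff start hold none of the motifs searched.

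Among the JUN genes, Jun and Jund were highest in nonclassical monocytes and Junb was higher in both monocyte populations than in the progenitors. Jun, the central partner of the FOS proteins, had log2 values of 9.46 in MDP, 9.44 in CDP, 8.69 in cMoP, 8.74 in classical and 10.10 in nonclassical monocytes. The cMoP and classical monocyte arrays were thus the low pair, MDP and CDP lay together above them, and the nonclassical array stood 0.64 above the next. The difference of nonclassical from classical monocytes was 1.36 (2.56-fold), at percentile 97.7 of the 10503 genes past the floor in that comparison. Against MDP, cMoP was lower by a difference of -0.78, at percentile 2.58 of 10235 genes, which did not reach the size rule.

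Jund, a JUN protein whose transcript is present in most resting cells, read 7.89 in MDP, then 8.20 in CDP, 7.94 in cMoP, 7.74 in classical and 8.60 in nonclassical monocytes. It was lowest in the classical monocyte, and its difference between the monocyte arrays was 0.86 (percentile 95.6). That difference lay under the size rule but reached 1.01 after quantile normalization. Junb, which can oppose JUN at some targets, had values of 6.54, 6.77 and 6.64 in MDP, CDP and cMoP, and of 7.47 and 7.48 in classical and nonclassical monocytes. Both monocyte arrays lay above all progenitor arrays, by at least 0.70, and the step from cMoP to the classical monocyte was 0.83. Of the 3 JUN genes, Jun alone passed the size rule.

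Among the FOS genes, Fos and Fosl2 were higher in both monocyte populations than in any progenitor, and Fosb was not. Fos stood at 6.72 in MDP, at 7.56 in CDP, at 7.10 in cMoP, and at 8.97 in classical and 8.72 in nonclassical monocytes. The lower monocyte array stood 1.17 above the highest progenitor array. The step from cMoP to the classical monocyte was 1.87 (3.64-fold), the largest difference of any member in the 5 comparisons, at percentile 97.8 of 10305 genes. The monocyte subsets differed by -0.25.

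Fosl2 encodes FRA2, a FOS protein with weak activating capacity. Its values were 7.20 in MDP, 7.54 in CDP, 7.88 in cMoP, 9.21 in classical and 8.57 in nonclassical monocytes. Unlike Fos, it was higher in cMoP than in CDP (0.34), and its level in nonclassical monocytes was below that in classical ones by a difference of -0.65. The step from cMoP to the classical monocyte was 1.34 (2.52-fold, percentile 95.9). Fosb read 6.62 in MDP, 6.31 in cMoP and 7.02 in CDP, and was listed at 6.62 in both monocyte populations, identical to MDP. Its levels lay close to the floor on every array, and its highest array, CDP, stood 0.40 above the next.

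Atf3, the stress-induced factor, was under the floor in the progenitors and above it in both monocyte populations. Its values were 5.27 in MDP, 6.02 in CDP, 5.85 in cMoP, 7.15 in classical and 8.31 in nonclassical monocytes. No order is read among the progenitors. With values under the floor raised to it, an alternative added after the data were seen, Atf3 had a range of 2.04 log2 units, next to 2.25 for Fos and 2.01 for Fosl2. From cMoP to the classical monocyte the difference was 1.31, but with cMoP at the floor it was 0.89 (at least 1.85-fold), short of the size rule. From classical to nonclassical monocytes it was 1.15 (2.23-fold, percentile 97.0). Both of its arrays in this comparison lay above the floor. These comparisons share the classical monocyte array.

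The BATF genes and Maff varied little. Batf had values of 7.85 in MDP, 8.01 in CDP, 8.24 in cMoP, 8.32 in classical and 7.94 in nonclassical monocytes. Its range of 0.47 was wider than that of 29.4% of genes, under the median range of 0.75. Batf3 had values of 6.61 in MDP, 6.93 in CDP, 6.44 in cMoP, 6.61 in classical and 6.62 in nonclassical monocytes. CDP, the progenitor of dendritic cells, was highest by 0.31 on a dim probe set, and MDP and the classical monocyte were tied. Maff was listed at 6.49 on 4 arrays, to the last digit, and at 6.56 in nonclassical monocytes. No order of populations can be read for it.

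**Figure D2:**
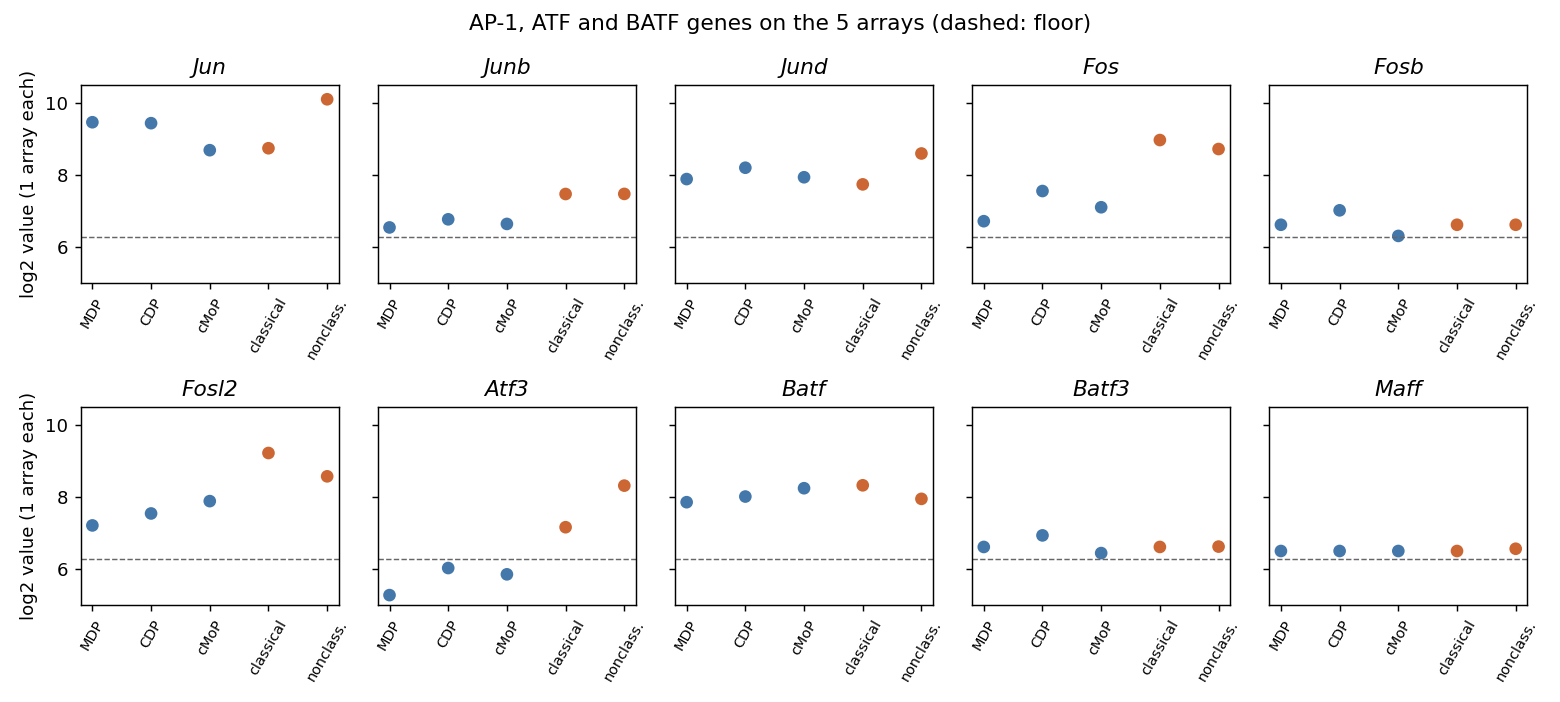
Deposited log2 values of the 10 genes, with 1 point per array (blue for the progenitors, orange for the monocytes) and the floor of 6.27 as a dashed line. Fos, Fosl2, Junb and Atf3 have both monocyte points above all progenitor points, Jun is highest in nonclassical monocytes, and Batf, Batf3 and Maff stay nearly level.

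Across the stages, members passed the size rule between cMoP and the classical monocyte and between the monocyte subsets, and 0 passed among the progenitors. Over all genes, the shares higher were 1.15%, 1.44% and 3.23% among the progenitors, and those lower 1.06%, 1.4% and 2.2%. From cMoP to the classical monocyte they were 7.01% and 4.4%, and between the monocyte subsets 3.55% and 9.82%. All genes thus also passed less often among the progenitors, and the 0 is not read as particular to the members. Both monocyte arrays were above all 3 progenitor arrays for 4 of the 10 members (Fos, Fosl2, Junb and Atf3), against 18.0% of the 11058 genes. With a gap of 1 log2 unit or more, 2 members (Fos and Atf3) were monocyte genes of this kind, against 2.38% of genes. With values under the floor raised to it, Fos alone remained, 1 member against 2.2% of genes. The reverse gap, a progenitor gene, was met by 0 members and by 0.787% of genes. Of the 10 members, 5 were highest in nonclassical monocytes, 3 in classical monocytes, 2 in CDP and 0 in MDP or cMoP, but Junb and Maff are counted on margins of 0.00 and 0.06. The share of all genes highest on each array was not computed, so this split is not read as particular to the members.

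The comparison of CDP with MDP asks what sets the dendritic progenitor apart from the shared one. None of the members passed the size rule there, against 1.15% of genes past the floor in the higher direction and 1.06% in the lower. Fos was nearest to it at 0.84 (percentile 98.2), from 6.72 to 7.56. Fosb followed at 0.40, then Fosl2 at 0.33, Batf3 at 0.32, Jund at 0.31, Junb at 0.23 and Batf at 0.16, while Jun was at -0.03 and Maff at 0.00. Atf3 differed by 0.75 with both values under the floor. The median over the 9 members past the floor was 0.31, against -0.01 over all 10416 genes.

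The comparison of cMoP with MDP did the same for the monocyte progenitor. Again 0 members passed, with 1.44% of genes higher and 1.4% lower. Fosl2 was at 0.67 (percentile 96.1), Batf and Fos were each at 0.39, and Junb and Jund were at 0.10 and 0.05. Jun, at -0.78, and Fosb, at -0.31, were lower in cMoP. The median over 9 members was 0.05, against 0.00 over all genes.

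Between the committed progenitors, cMoP and CDP, 0 members passed, with 3.23% of genes higher in cMoP and 2.2% lower. Jun (-0.75), Fosb (-0.71), Batf3 (-0.49) and Fos (-0.45) had the widest negative differences. Fosl2 (0.34) and Batf (0.23) were the members higher in cMoP. The median over 9 members was -0.26, against 0.02 over all genes. CDP was above both other progenitors for 6 of the 10 members (Fos, Fosb, Junb, Jund, Atf3 and Batf3), against 29.0% of genes. With values under the floor raised to it, Atf3 dropped out, leaving 5 members against 27% of genes. These 3 comparisons share their arrays, so the CDP array alone enters 2 of them. Centring the arrays moved the all-gene median by 0.11 in both comparisons with cMoP and shifted their splits, from 147 higher and 143 lower genes to 196 and 106 against MDP, and from 337 and 230 to 468 and 182 against CDP.

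The step from cMoP to the classical monocyte asks what changes as the progenitor gives rise to a monocyte. Here 3 of the 10 members were higher by the size rule (Fos, Fosl2 and Atf3), against 7.01% of genes, and 0 were lower, against 4.4%. With values under the floor raised to it, 2 members were higher (Fos and Fosl2), against 6.42% of genes. Junb was at 0.83 and Fosb at 0.31, the latter between dim values. Batf3 was at 0.17, Batf at 0.08, Jun at 0.05 and Maff at 0.00, and Jund was the member with a negative difference, at -0.20. The median was 0.24, against -0.01 over all genes. The FOS genes Fos and Fosl2 thus passed across this step, and their partner Jun did not.

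Between nonclassical and classical monocytes, 2 members were higher by the size rule (Jun and Atf3), against 3.55% of genes, and 0 were lower, against 9.82%. Jund was at 0.86. Fosl2 (-0.65), Batf (-0.38) and Fos (-0.25) were the members with lower values in the nonclassical monocyte, while Junb, Batf3 and Fosb differed by 0.01 or less. The median over the 10 was 0.01, against -0.09 over all genes. Fos and Fosl2, which passed the size rule from cMoP to the classical monocyte, did not pass here.

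**Figure D3:**
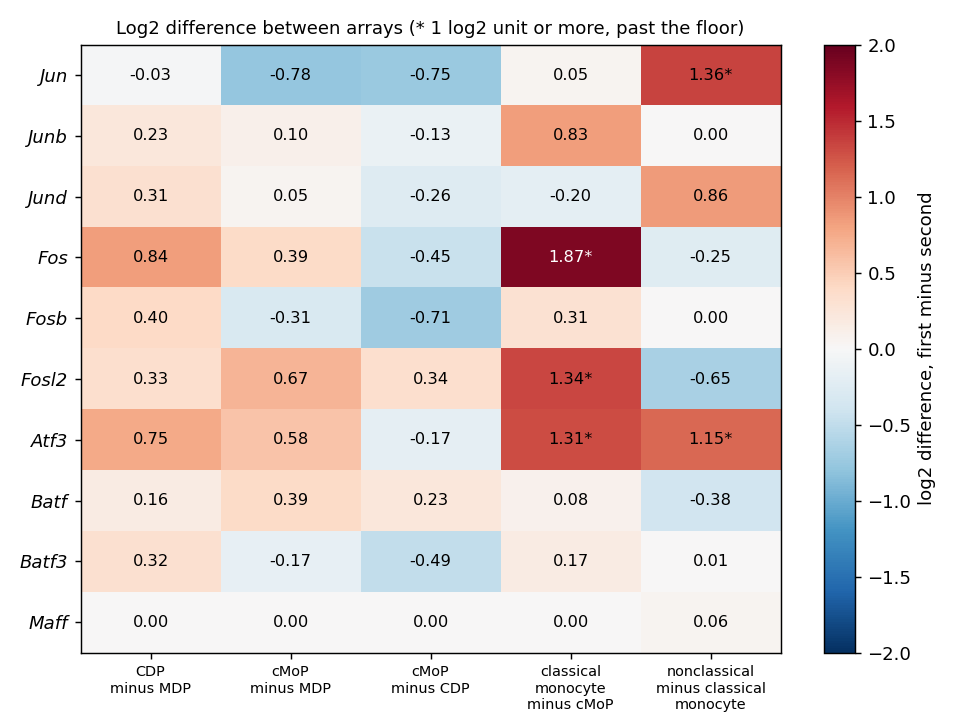
Log2 difference of each member (rows) in the 5 comparisons (columns), first population minus second, coloured from -2 to 2; an asterisk marks a difference of 1 log2 unit or more with the higher array past the floor. The 5 marked cells are Fos, Fosl2 and Atf3 for the classical monocyte against cMoP, and Jun and Atf3 for nonclassical against classical monocytes; the cMoP value of Atf3 is under the floor.

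The members had different profiles over the 5 arrays. Likeness was measured as the root mean square distance between profiles, each centred on its own mean, over 5 arrays. Fos and Fosl2 were 0.34 log2 units apart, Fos and Atf3 0.48, and Fos and Jun 0.97. Jun and Jund were 0.31 apart, and Fosb and Batf3 0.07, the latter pair being dim and nearly level. Of the 11058 genes, the 3 nearest to Fos were Shisa5 (0.04), Dse (0.11) and Tlr2 (0.12), the receptor for bacterial lipopeptides. The 3 nearest to Fosl2 were Cap1 (0.07), Lyst (0.08), a regulator of lysosome-related organelles, and Cers6 (0.10), a ceramide synthase. Atf3 was nearest to Gpr35 (0.09), B4galt5 (0.10) and Sgk1 (0.11), a serum- and glucocorticoid-induced kinase. All distances of Atf3, that to Fos included, rest in part on its progenitor values, which lie under the floor. Jun was nearest to Acss1 (0.11), Phlda3 (0.13) and Clcf1 (0.14), a cytokine. Some of these near genes were themselves under the floor on some arrays. Dse was at 5.51 in MDP and 5.85 in cMoP, and Sgk1 at 5.70 and 6.18. Phlda3 was at 5.70 in cMoP and 5.84 in the classical monocyte. Shisa5 had values of 9.44, 10.26 and 9.88 in MDP, CDP and cMoP and of 11.69 and 11.54 in classical and nonclassical monocytes.

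Other immediate early genes included some that were higher in monocytes and some that were lower. Of 33 measured genes of this list, 9 were higher and 1 was lower in the classical monocyte than in cMoP, of 28 past the floor (median 0.51). Over all genes these shares were 7.01% and 4.4%. The 4 with the widest differences were Myc (-2.80), Btg2 (2.40), an antiproliferative factor, Zfp36 (2.34), which destabilises messenger RNAs, and Nr4a1 (1.82), the factor needed for nonclassical monocytes. Nr4a1 was under the floor in cMoP, and with cMoP at the floor it was at least 3.03-fold higher, less than Dusp1 (1.70, 3.26-fold). Between nonclassical and classical monocytes 10 were higher and 1 lower of 30 (median 0.54), against 3.55% and 9.82% of all genes. The widest differences were those of Nr4a1 (3.94), Zfp36l1 (3.71), Myc (-3.05) and Hspa1a (2.41), an inducible chaperone. Myc was under the floor in nonclassical monocytes, at 5.61, and was at least 5.25-fold lower there. Btg2, Nr4a1 and Klf10 were monocyte genes by the gap of 1 log2 unit, as Fos was, 3 of 30 against 2.38% of genes. Myc was a progenitor gene, 1 of 30 against 0.787% of genes.

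Among the progenitors, 27 genes of the immediate early list were past the floor in each comparison. In CDP against MDP 2 were higher and 1 lower, with 1.15% and 1.06% of all genes. In cMoP against MDP 1 was higher and 1 lower, with 1.44% and 1.4% of all genes. In cMoP against CDP 1 was higher and 3 were lower, with 3.23% and 2.2% of all genes. Klf4 (2.21) and Klf6 (1.32) were higher and Myc (-1.27) lower in CDP than in MDP. Klf4 (1.88) was higher and Dusp1 (-1.42) lower in cMoP than in MDP. Dusp1 (-1.56), Zfp36 (-1.56) and Btg2 (-1.25) were lower and Gadd45b (1.44) higher in cMoP than in CDP. Egr1, a growth factor response gene singled out after its values were seen, had values of 6.91 in MDP, 6.68 in CDP, 6.38 in cMoP, 6.11 in classical and 6.80 in nonclassical monocytes. The classical monocyte value lies under the floor and the cMoP value just above it, so no order is read between them. Hspa1a, which heat and other stress induce, was at 7.46 in classical and 9.87 in nonclassical monocytes, a step in which Jun and Atf3 were also higher, and between 7.56 and 8.27 in the progenitors. Whether stress during the sort had a part in the levels of Jun and Atf3 was not tested.

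**Figure D4:**
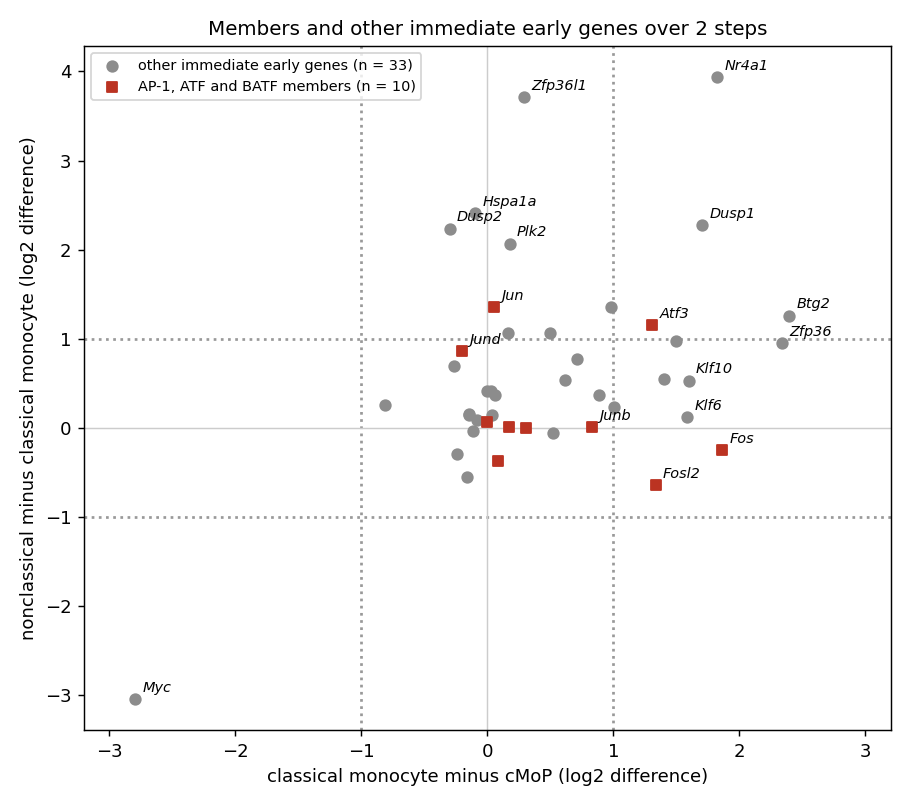
Each point is 1 gene: the x axis is its log2 difference of the classical monocyte from cMoP and the y axis that of nonclassical from classical monocytes, with dotted lines at 1 and -1. Fos and Fosl2 lie to the right at 1.87 and 1.34 and below 0 on the y axis, Jun lies at 0.05 and 1.36, and Atf3 lies at 1.31, from a cMoP value under the floor, and 1.15; the axes share the classical monocyte array.

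The genes that act with or upstream of these factors were described by lists. Of the other FOS, JUN, ATF and BATF relatives, 0 of 10 passed the size rule in any of the 5 comparisons, with 9 past the floor. Over all genes, the share passing in 1 direction of a comparison ran from 1.06% to 9.82%. Atf6, a sensor of the endoplasmic reticulum, came nearest, at 0.78 between nonclassical (9.93) and classical (9.15) monocytes. Of the MAP kinases and their kinases, 22 were measured and 19 were past the floor. Of these, 3 were higher in the classical monocyte than in cMoP, against 7.01% of genes. All were at the level of the upstream kinase kinases: Map3k8 (1.86), Map3k2 (1.24) and Map3k5 (1.07). Map3k8 had values of 6.23, 7.08 and 6.55 in MDP, CDP and cMoP and of 8.41 and 9.32 in classical and nonclassical monocytes. In the other 4 comparisons 0 passed, except that 2 were higher in nonclassical than in classical monocytes after quantile normalization, with 454 of 10440 genes.

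Serum response factor and its relatives are the usual activators of Fos and other immediate early genes. Srf itself was between 7.99 and 8.65 on all arrays. In that list of 9 measured genes, Mef2a (1.92) and Mrtfa (1.16) were higher in the classical monocyte than in cMoP, 2 of 9 against 7.01% of genes. Mef2c (1.16) was higher in nonclassical than in classical monocytes, 1 of 9 against 3.55%. Of the 14 CREB factors and coactivators, Ep300 (1.23) was higher in the classical monocyte than in cMoP and 0 passed elsewhere. That is 1 of 10 past the floor, against 7.01% of genes. After quantile normalization 2 genes of this list were lower in cMoP than in CDP, with 228 of 10557 over all genes. Of 8 measured genes of JUN turnover, 6 were past the floor in nonclassical against classical monocytes. Of these, 1 was higher in nonclassical monocytes, against 3.55% of genes: Trib1, an adaptor of the ubiquitin ligase COP1 (2.18). Jun was also higher in that comparison. After centring 1 gene of this list was lower there, with 1218 of 10442 over all genes.

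A list of 4 partner factors held Irf4 and Irf8, which bind with BATF proteins, and the ETS factors Spi1 and Spib, which bind with IRF4 or IRF8. Irf4 was under the floor in the progenitors (5.14, 5.62 and 4.69 in MDP, CDP and cMoP) and at 6.73 and 7.35 in classical and nonclassical monocytes, at least 1.37-fold higher in the classical monocyte than in cMoP. Irf8 was 10.54, 11.07 and 10.45 in the progenitors, and 10.32 in the classical monocyte, and the nonclassical monocyte differed from the latter by -1.32. In each of these comparisons 3 genes of the list were past the floor. The 1 that was higher, Irf4, stands beside 7.01% of all genes, and the 1 lower, Irf8, beside 9.82%. With values under the floor raised to it, the Irf4 step did not reach the size rule. Spi1 was between 10.16 in MDP and 11.24 in nonclassical monocytes, and Spib was under the floor on all arrays. Batf itself stayed between 7.85 and 8.32 on these arrays.

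Markers of other cells were compared on the same arrays, since Fos, Junb and Fosl2 are also expressed in neutrophils and macrophages. The summed log2 level of 11 neutrophil markers was 84.4 in classical and 68.7 in nonclassical monocytes. In the progenitors it was between 66.0 and 73.3, the latter in cMoP. It thus rose with Fos and Fosl2 at the step from cMoP to the classical monocyte. In the nonclassical monocyte the sum was below that of cMoP, while Fos (8.72) and Fosl2 (8.57) stayed above all progenitor arrays. From cMoP to the classical monocyte Mmp8 went from 7.02 to 11.28, S100a9 from 8.41 to 12.07, S100a8 from 11.23 to 12.64, Csf3r from 8.96 to 9.93, Camp from 6.29 to 6.89 and Ngp from 5.09, under the floor, to 6.62. Cxcr2 went the other way, from 6.88 to 5.51, the latter under the floor. Of the same list Ly6g, Ltf, Mmp9 and Retnlg were under the floor on all 5 arrays. The widest rises at that step were those of Mmp8 (4.26) and S100a9 (3.66). Whether the transcripts that rose came from neutrophils or from the monocytes themselves was not tested. The summed level of 8 macrophage markers ran from 42.4 in MDP to 46.7 and 48.4 in classical and nonclassical monocytes, with Adgre1 at 6.43 in MDP and at 9.65 and 11.25 in the monocytes, while Mertk, Vcam1, Cd5l and the 3 C1q genes stayed under the floor throughout. For B cells 6 of 7 measured markers, for T and NK cells 6 of 8, and for basophils, mast cells and eosinophils 5 of 8 were never at the floor. The others included Prss34, a basophil protease, at 6.52 in classical and 7.86 in nonclassical monocytes, the step at which Jun and Atf3 were higher. Mcpt8, also of basophils, was highest in MDP at 8.95, and the B cell gene Cd79b was between 8.41 and 9.50 on all arrays. The part of such cells in the members' levels was not tested further. Of 8 conventional dendritic cell markers, 6 were at or above the floor in CDP, where Batf3 was highest, against 5 in MDP, 2 in cMoP, 4 in classical and 3 in nonclassical monocytes.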

How the data were processed

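Expression was measured on 5 arrays, 1 for each sorted population, and groups were taken from the sample titles. The deposited table holds log2 values for 35556 probe sets; that scale was inferred from their range (1.59 to 14.24). How the authors corrected, normalized and summarized the arrays, and the logarithm's base, were not given in the sources used here; folds would change with another base.

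Probe sets were named from the platform annotation: 21789 carry 1 symbol, 1621 several and 12146 none. For each gene the probe set with 1 symbol and the highest mean was used, which gave 19938 genes. Differences were computed with Python 3.11.15, numpy 2.4.6 and pandas 2.3.3, and the rules were tested on simulated data. No test was possible. Named genes were all members, the 4 widest of each list past the size rule, and the 3 nearest profiles of members with a range of 1 or more; exceptions are marked. Members and lists were chosen with earlier results of these data known. Alternatives were centring, quantile normalization, averaging the probe sets of each gene, other floors, values raised to the floor and other size rules.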

Additional observations from a re-analysis of the deposited data

How the results depend on the processing

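No paired analysis was possible because each population has 1 array. The direction of the 5 differences past the size rule held under centring and quantile normalization, and the 50 member differences moved by at most 0.11 and 0.20, respectively. Averaging probe sets could not move a member, since each has 1. With values under the floor raised to it, added after seeing the data, Atf3 no longer passed from cMoP to the classical monocyte (0.89) and monocyte genes became 1 (Fos). Quantile normalization brought Jund past the size rule between the monocyte subsets (1.01). Dropping the floor changed no count of members beyond 1.5 times. With a floor at the upper quartile, Atf3 no longer passed between cMoP and the classical monocyte, leaving 2 members, with 570 of 5851 genes. The counts depended most on the size rule. At 1.5 log2 units, members higher in the classical monocyte than in cMoP fell from 3 to 1 (Fos), members higher in nonclassical than in classical monocytes from 2 to 0, and monocyte genes from 2 to 0. Over all genes, 337 of 10305 were then higher in the former comparison and 198 of 10503 in the latter. At 1.5-fold, monocyte genes became 4, a share not computed over all genes. In CDP against MDP 1 member was higher (Fos), with 427 of 10416 genes. In cMoP against MDP 1 was higher (Fosl2) and 1 lower (Jun), with 565 and 564 of 10235 genes. In cMoP against CDP 2 were lower (Fosb and Jun), with 713 of 10441 genes. Junb joined those higher in the classical monocyte than in cMoP, with 1421 of 10305 genes. Jund joined those higher in nonclassical than in classical monocytes, with 845 of 10503 genes. In that comparison 1 was lower (Fosl2), with 2274 genes. The fewer or more genes follow from the rule itself. The counts of 6 members highest in CDP among progenitors and of 4 with both monocyte arrays above the progenitors, alternatives added after seeing the data, stayed within 1.5 times under both scalings and with values raised to the floor. Of the 80 counts of the other lists, 2 changed by more under centring, 2 under quantile normalization, 2 with values raised to the floor (Bach2 and Irf4 no longer passed) and 0 with the mean of probe sets. Centring made the classical monocyte the highest array for Junb and, as did quantile normalization, cMoP for Maff, on margins near 0. Without replicates, signal near the floor limits what can be read of Fosb, Batf3, Maff and, in progenitors, Atf3.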

Other observations

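Some members lie beside each other in the genome with different profiles. In the RefSeq gene table, Fos and Batf on chromosome 12 have 1 protein-coding gene between them, Jdp2, a repressor that pairs with JUN. Fos had a range of 2.25 log2 units over the 5 arrays, while Batf had 0.47 and Jdp2 stayed between 6.97 in CDP and 7.41 in cMoP. Atf3 and Batf3 on chromosome 1 also have 1 protein-coding gene between them, Fam71a, and their ranges were 2.04, with values under the floor raised to it, and 0.49.

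The MAF, NFE2 and BACH factors, the zipper proteins that pair with small MAF proteins such as MAFF, held 1 monocyte gene among 8 past the floor. Over all genes the share of monocyte genes was 2.38%. Bach1, a heme-sensing repressor, had values of 7.72, 7.82 and 7.84 in MDP, CDP and cMoP and of 9.39 and 9.95 in classical and nonclassical monocytes, a difference of 1.54 between the classical monocyte and cMoP. Bach2, its lymphoid relative, was lower in cMoP (5.05) than in CDP (6.72) by a difference of -1.67, at least 1.37-fold with cMoP set to the floor, short of the size rule, and was under the floor on the other 3 arrays. Nfe2l2, the antioxidant response factor NRF2, was between 9.90 in CDP and 11.52 in nonclassical monocytes.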
